A study of Mus musculus with 6 samples.

Results

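The enzymes that turn squalene epoxide into lanosterol and lanosterol into cholesterol were compared step by step between control and Rnf40ΔSC nerves. The genes were taken by symbol from the textbook order of the pathway, *Lss*, *Cyp51*, *Tm7sf2*, *Msmo1*, *Nsdhl*, *Hsd17b7*, *Ebp*, *Sc5d* and *Dhcr7*, and all 9 were found among the 24015 gene symbols of the count tables. All 9 also passed the filter on low counts, which left 11371 genes for testing.

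The study asked what the loss of Rnf40, a subunit of the E3 ligase that places ubiquitin on histone H2B, does in Schwann cells. Whole sciatic nerves were taken at postnatal day 14, and RNA from pools of 3 nerves was sequenced as 3 control and 3 Rnf40ΔSC libraries. Mice of both groups carried *Rnf40* fl/fl alleles, and Rnf40ΔSC mice carried the *Dhh::Cre* transgene in addition. The labels give 129SvJ and C57Bl/6J as the mixed background, whereas the methods name C3H and C57Bl/6J.

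*Dhh::Cre* acts in the Schwann cell lineage, so that the fibroblasts, perineurial cells, vessels and immune cells of the nerve contribute RNA of their own. In such bulk RNA, fewer cells of a type and less RNA per cell cannot be told apart. Control libraries held 1317167, 1992622 and 2468765 counts, and Rnf40ΔSC libraries 2184268, 1459387 and 2186710. A single count therefore equalled between 0.405 and 0.759 when counts were scaled to a total of 1e6 per library. The labels call the libraries biological replicates. *Rnf40* itself had 127, 123 and 138 normalized counts in control and 87.7, 87.9 and 91.5 in Rnf40ΔSC libraries, where normalized counts are counts brought to a common library size. Every Rnf40ΔSC library was below every control library, with a log2 fold change of −0.54 (SE 0.14, edgeR adjusted p = 0.00242). The estimate depended on the scaling. It was −0.27 by total counts (adjusted p = 0.12) and 0.26 when libraries were scaled to the Schwann cell genes *Sox10*, *Erbb3* and *S100b* (adjusted p = 0.116). In the floxed allele, loxP sites flank only some exons of *Rnf40*, and by staining the paper found the deletion in Schwann cells complete at birth. The counts used here cover the whole gene in all cells of the nerve, and so do not measure that deletion. *Rnf20*, the partner subunit, had 124, 124 and 109 normalized counts in control and 171, 179 and 133 in Rnf40ΔSC libraries, which did not overlap (log2 fold change 0.44, adjusted p = 0.00998). Its adjusted p rose to 0.087 without control replicate 3 and 0.057 without Rnf40ΔSC replicate 1. With only the libraries that have counts of the Y-linked gene *Ddx3y*, it was 0.0755. The estimate was 0.71 by total counts (adjusted p = 5.82e-05) and 1.24 by the 3 Schwann cell genes (adjusted p = 3.41e-10), the latter a call.

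Cholesterol is made in the endoplasmic reticulum from acetyl-CoA by way of mevalonate and squalene, and the enzymes described here close the rings and then remove methyl groups and shift or reduce double bonds. Myelin is rich in cholesterol, and myelinating Schwann cells make most of it themselves. Transcription of the pathway is driven by the sterol regulatory element-binding proteins (SREBPs), which act together with the factors NF-Y and Sp1 at many of its promoters.

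The promoters of the 9 genes are shown first because 8 of the 9 were called lower, as given below. RefSeq (GRCm38.p6) gave a window of 300 bases, from 250 before to 50 after the start site, for each of them, and 3 windows for *Dhcr7*. All 11 windows had exactly 1 perfect match in the mm9 genome, from which the coordinates are given. Windows are printed 5′ to 3′ on the strand of the gene for *Lss*, which fell most, for *Msmo1*, *Nsdhl* and *Hsd17b7*, which hold the most CCAAT letters, and for *Ebp*, which fell least. Capitals mark CCAAT on either strand.
*Lss*, chr10:75994100-75994399, + strand: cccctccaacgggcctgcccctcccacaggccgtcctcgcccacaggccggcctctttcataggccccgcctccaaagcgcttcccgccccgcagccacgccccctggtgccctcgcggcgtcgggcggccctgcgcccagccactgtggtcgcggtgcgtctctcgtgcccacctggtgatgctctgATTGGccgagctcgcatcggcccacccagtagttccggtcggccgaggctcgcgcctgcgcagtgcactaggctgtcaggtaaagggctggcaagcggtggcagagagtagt
*Msmo1*, chr8:67212326-67212625, − strand: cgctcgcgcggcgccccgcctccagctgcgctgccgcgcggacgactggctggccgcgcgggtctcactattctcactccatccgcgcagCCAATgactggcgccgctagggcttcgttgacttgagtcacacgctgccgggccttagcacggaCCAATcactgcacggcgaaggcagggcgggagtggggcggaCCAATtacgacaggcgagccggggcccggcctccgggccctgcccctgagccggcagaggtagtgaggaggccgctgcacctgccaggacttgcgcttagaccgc
*Nsdhl*, chrX:70163610-70163909, + strand: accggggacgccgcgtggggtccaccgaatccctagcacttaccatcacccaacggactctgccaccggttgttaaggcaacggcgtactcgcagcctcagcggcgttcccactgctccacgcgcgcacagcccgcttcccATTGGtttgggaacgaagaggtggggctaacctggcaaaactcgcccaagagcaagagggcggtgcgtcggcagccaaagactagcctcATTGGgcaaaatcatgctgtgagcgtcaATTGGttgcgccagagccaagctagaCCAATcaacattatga
*Hsd17b7*, chr1:171899287-171899586, − strand: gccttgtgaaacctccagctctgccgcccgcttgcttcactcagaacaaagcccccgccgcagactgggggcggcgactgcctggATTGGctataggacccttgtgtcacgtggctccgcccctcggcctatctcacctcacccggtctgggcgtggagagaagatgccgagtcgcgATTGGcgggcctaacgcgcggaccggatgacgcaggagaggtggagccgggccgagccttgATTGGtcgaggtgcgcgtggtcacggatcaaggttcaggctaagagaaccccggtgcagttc
*Ebp*, chrX:7770589-7770888, − strand: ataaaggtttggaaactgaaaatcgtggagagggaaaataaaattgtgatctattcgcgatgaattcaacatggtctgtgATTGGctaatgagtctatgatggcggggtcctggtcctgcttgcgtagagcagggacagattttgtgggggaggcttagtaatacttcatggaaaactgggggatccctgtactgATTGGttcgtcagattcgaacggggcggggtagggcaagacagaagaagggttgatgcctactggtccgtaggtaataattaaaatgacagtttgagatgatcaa

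CCAAT, the letters bound by NF-Y, occurred on either strand in a window of 9 of 9 enzymes, against 41.1% of the 27025 genes in the promoter table. At least 2 copies were present for 5 of the 9, *Msmo1*, *Nsdhl*, *Hsd17b7*, *Ebp* and *Dhcr7*, against 13.3% of all genes in the table. *Nsdhl* had 4 copies, 2 before and 2 after the start site. For *Dhcr7* the copies lay in 1 of its 3 windows, at chr7:151015869-151016168. The GC box GGGCGG, the letters bound by Sp1, was likewise found for 9 of 9 enzymes, against 38.2% of all genes in the table. Neither the sterol element letters TCACCCCAC nor the shorter CACCCCAC they contain were in any of the 11 windows, and 0.6% and 3.3% of all genes in the table held them. With shares this low, their absence from 9 enzymes does not set these apart from other genes. The Egr letters GCGTGGG were found for *Nsdhl*, *Sc5d* and *Dhcr7* (5.7% of all genes) and the E-box CACGTG for *Hsd17b7*, *Sc5d* and *Dhcr7* (8.1%). In *Dhcr7*, copies of the Egr letters and the GC box shared bases. The table of all genes includes many that were not tested in these nerves. Among the 9057 tested genes matched to a window (79.7% of those tested), the shares were 42.8% for CCAAT, 16.5% for at least 2 copies of it, 70.5% for the GC box, 10.3% for the Egr letters and 11.8% for the E-box. They were 0.7% and 3.9% for the longer and the shorter sterol element letters. CCAAT was present for 45.4% of the 438 matched genes called lower and 42.0% of the 319 called higher, with at least 2 copies for 18.0% and 18.2%. The genes tested and matched fell short of a limit of 80%, so these shares are given as description only. The GC box was more frequent among them than in the table of all genes (70.5% against 38.2%), as were the Egr letters and the E-box. The contrast of the enzymes with the table of all genes is therefore the larger one. These matches describe the letters of the windows, and binding was not measured here.

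**Figure D1:**
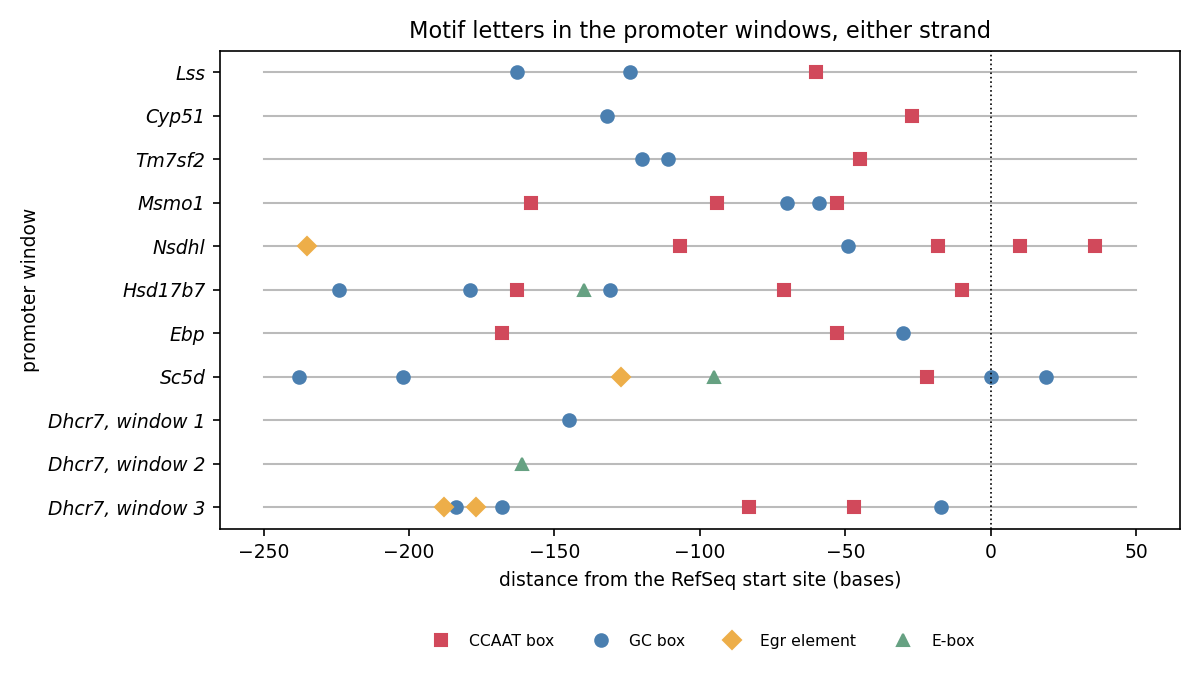
Positions of CCAAT (red squares), GC box (blue circles), Egr (yellow diamonds) and E-box letters (green triangles) on either strand, as distance in bases from the RefSeq start site, in the 11 promoter windows of the 9 enzymes. Each grey line is 1 window from 250 bases before to 50 after the start, and 9 of 9 enzymes have CCAAT in at least 1 window.

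In Rnf40ΔSC nerves, 8 of the 9 enzymes were called lower, that is, they had a base mean (the mean normalized count of all libraries) of 20 or more, a log2 fold change of 0.8 or more in either direction and an adjusted p not above 0.05. By the same rule, 4.99% of the genes tested (567 of 11371) were called lower and 3.65% (415) higher. Without the limits on fold change and base mean, 9 of 9 enzymes were lower by adjusted p, against 16.2% of the genes tested, while 15.4% were higher. In 9 of 9 enzymes, every Rnf40ΔSC library lay below every control library, which applied to 21.6% of the genes tested. The median log2 fold change of the 9 was −2.68, beside a median of −0.00255 over all genes tested. Summed levels are given as CPM, counts per 1e6 of the library size after TMM correction. Summed over the 9 enzymes, the level was 1881, 2396 and 2037 CPM in control and 361, 311 and 318 CPM in Rnf40ΔSC libraries, a mean that was 6.38-fold lower (5.29-fold with sizes by total counts). The split of all calls depended on the scaling, with 261 genes lower and 1008 higher by total counts and 100 lower and 4681 higher by the 3 Schwann cell genes. Relative to those scalings the median of all genes moved to 0.27 and 0.80, and the median of the 9 enzymes was −2.40 and −1.87.

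**Figure D2:**
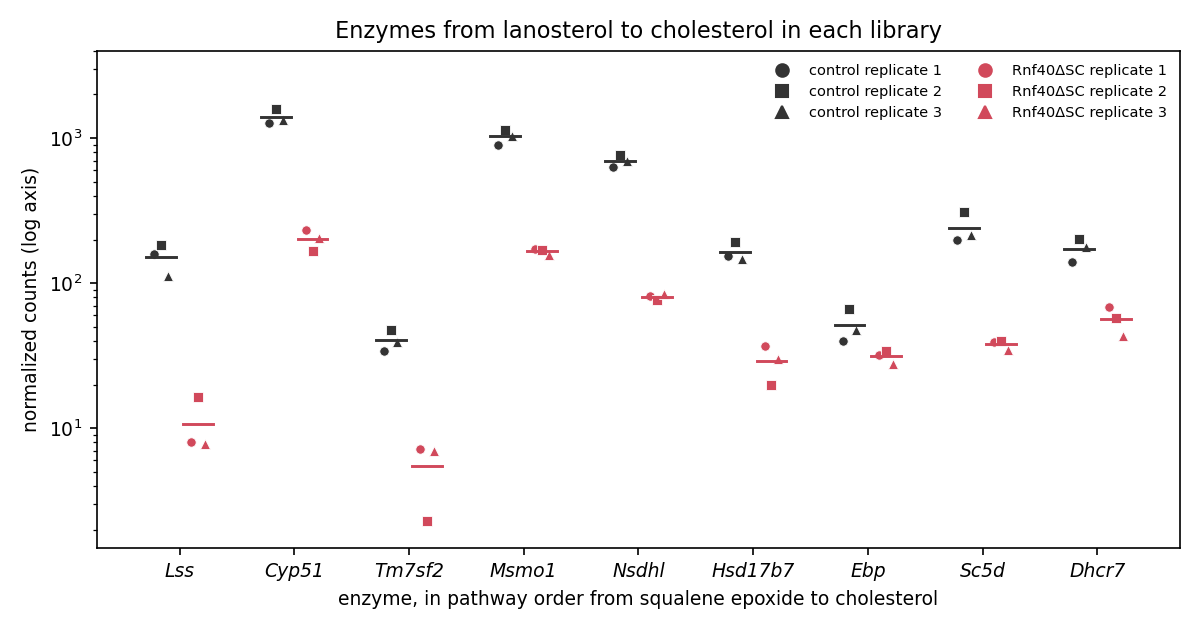
Normalized counts (log axis) of the 9 enzymes in pathway order, with 1 symbol for each library, control in black and Rnf40ΔSC in red, and a bar at each group's mean. For each enzyme the 3 red symbols lie below the 3 black ones, by the smallest distance for *Ebp* (51.5 against 31.4 on average).

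*Lss* (chr10:75994333-76019883, + strand) encodes lanosterol synthase, which folds squalene epoxide into the first sterol. Its normalized counts were 159, 184 and 111 in control and 8, 16.4 and 7.8 in Rnf40ΔSC libraries. The groups were far apart, the lowest control library being several times above the highest Rnf40ΔSC library. *Lss* dropped by 3.87 on the log2 scale (SE 0.25, edgeR adjusted p = 2.88e-13) to 6.82% of control (95% confidence interval 4.79 to 9.71%), which ranked 3 among the falls of all 11371 genes tested. Of its 10787 merged exon bases, 381 overlapped *4930483K19Rik* on the opposite strand.

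*Cyp51* (chr5:4081145-4104746, − strand), the demethylase that removes the first methyl group of lanosterol, had the most counts of the 9. Its libraries read 1264, 1580.2 and 1343 normalized counts in control and 232, 168 and 204 in Rnf40ΔSC nerves. Replicates were close to each other in both groups and the groups did not overlap. The log2 fold change was −2.79 (SE 0.11, edgeR adjusted p = 9.15e-21), or 14.5% of control.

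*Tm7sf2* (chr19:6062821-6068373, − strand) encodes the reductase that saturates the double bond left by Cyp51. It had the fewest counts, with raw counts of 22, 45 and 47 in control against 9, 2 and 9 in Rnf40ΔSC libraries, or 34, 47.7 and 39.3 against 7.2, 2.3 and 7 normalized counts. The groups did not overlap, but the lower group rested on few reads. *Tm7sf2* fell by 2.77 (log2, SE 0.34, edgeR adjusted p = 3.73e-08), with an interval of 9.07 to 23.7% of control. Its base mean of 22.9 was close to the limit of 20, and without control replicate 2 or control replicate 3 it fell under that limit and was no longer called (adjusted p = 1.32e-05 and 8.17e-06). Nor was it called when scaled to the 3 Schwann cell genes (−1.98, adjusted p = 4.76e-06). *1110014N23Rik*, on the same strand, overlapped 532 of its 3484 merged exon bases.

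The removal of the remaining pair of methyl groups takes 3 enzymes in turn. *Msmo1* (chr8:67196936-67212589, − strand), the oxidase that starts it, had 903, 1139 and 1042 normalized counts in control and 171, 169 and 157 in Rnf40ΔSC libraries. These groups were separate, with little spread inside either. The log2 fold change was −2.64 (SE 0.10, edgeR adjusted p = 2.36e-21).

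*Nsdhl* (chrX:70163896-70203853, + strand), the dehydrogenase that then splits off the carboxyl group, showed 631, 768 and 696 normalized counts in control and 81.3, 76.1 and 83.8 in Rnf40ΔSC nerves. Again no library of one group reached the other. With a log2 fold change of −3.11 (SE 0.11) and an edgeR adjusted p of 1.07e-22, *Nsdhl* ranked 3 among all genes tested by p and 9 by the size of the fall.

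*Hsd17b7* (chr1:171879666-171899372, − strand), the reductase that restores the hydroxyl group, had 154, 193 and 147 normalized counts in control and 37, 19.9 and 30.2 in Rnf40ΔSC libraries. Rnf40ΔSC replicate 2 was the lowest, and the groups did not overlap. *Hsd17b7* fell by 2.46 (log2, SE 0.18, edgeR adjusted p = 7.99e-14).

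*Ebp* (chrX:7762455-7770638, − strand) encodes the isomerase that moves the double bond within the ring. Its libraries held 40.1, 66.7 and 47.7 normalized counts in control and 32.2, 34 and 27.9 in Rnf40ΔSC nerves. The groups came close to each other without overlap, and control replicate 2 was the highest library. The log2 fold change of −0.74 (SE 0.22, edgeR adjusted p = 0.0093) missed the fold limit of a call. The estimate moved with libraries and scaling. It was −0.52 without control replicate 2 (adjusted p = 0.132), −0.86 without control replicate 1 and −0.81 without control replicate 3, the latter 2 past the limit of a call (adjusted p = 0.00592 and 0.0228). With only the libraries that have counts of the Y-linked gene *Ddx3y*, the estimate was −0.91 (adjusted p = 0.00941), also a call. It was −0.47 by total counts (adjusted p = 0.0867) and 0.064 when scaled to the 3 Schwann cell genes (adjusted p = 0.803).

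*Sc5d* (chr9:42062260-42072383, − strand), a desaturase, had 199, 310.3 and 215 normalized counts in control and 39.4, 39.8 and 34.9 in Rnf40ΔSC libraries. The Rnf40ΔSC libraries were nearly equal, and all were below control. *Sc5d* fell by 2.68 (log2, SE 0.16, edgeR adjusted p = 4.23e-15).

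*Dhcr7* (chr7:151009050-151034315, + strand), which reduces the double bond at carbon 7 of the ring system, had 140.4, 202 and 177 normalized counts in control and 68.4, 57.4 and 43.4 in Rnf40ΔSC libraries. No library of one group overlapped the other. *Dhcr7* fell by 1.63 (log2, SE 0.16, edgeR adjusted p = 2.66e-10), to 32.2% of control (interval 25.7 to 40.4%). Scaled to the 3 Schwann cell genes, *Dhcr7* was at −0.83 (adjusted p = 2.01e-05), still a call but close to the fold limit. Between 93% and 100% of the 31-base words in the exons of the 9 enzymes occurred once in the mm9 genome.

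**Figure D3:**
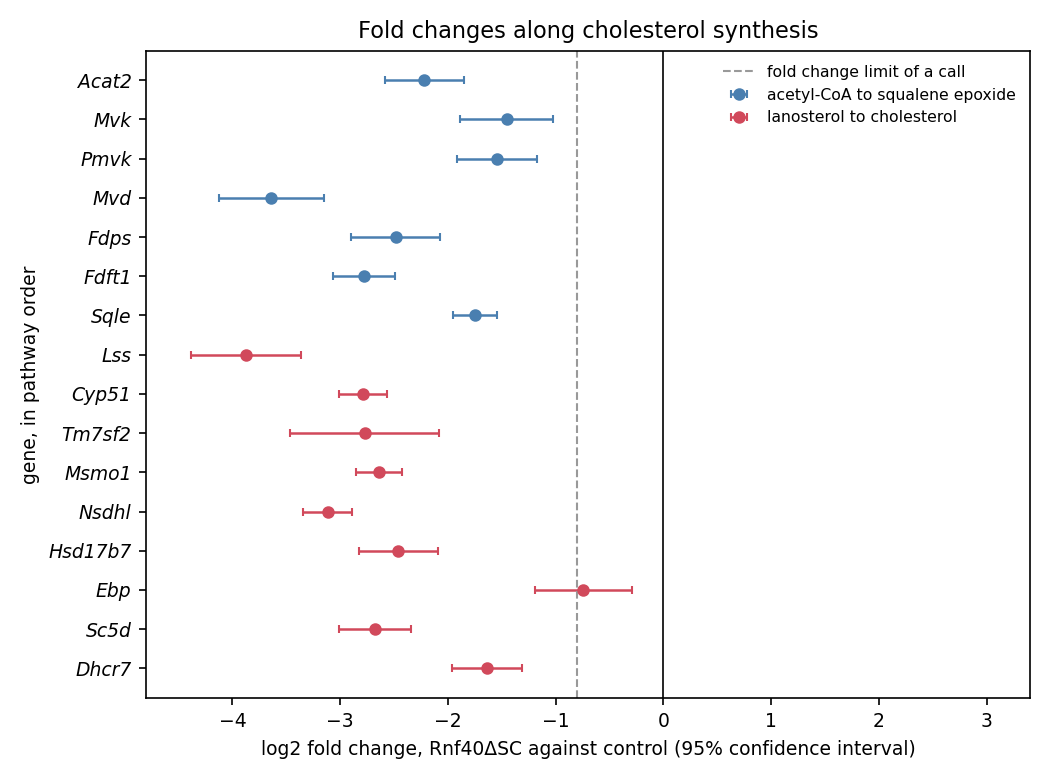
Log2 fold change of Rnf40ΔSC against control (points) with 95% confidence interval (bars) for 7 enzymes of the early steps (blue) and the 9 enzymes from lanosterol synthase on (red), in pathway order. All points lie below 0, and all but *Ebp*, which turned to 0.064 when scaled to 3 Schwann cell genes, lie beyond the dashed fold limit of −0.80.

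Whether neighbouring steps changed by different amounts was asked with the log2 ratio of each enzyme to the one before it within a library, which does not depend on the scaling of libraries except through the 0.5 CPM added to each level. The *Sc5d* over *Ebp* ratio was 2.28, 2.20 and 2.15 in control and 0.29, 0.22 and 0.31 in Rnf40ΔSC libraries. The 2 groups were well separated and tight, with a difference of −1.94. For *Ebp* over *Hsd17b7* the log2 ratio was −1.92, −1.52 and −1.61 in control and −0.20, 0.74 and −0.11 in Rnf40ΔSC libraries, a difference of 1.83. In neither ratio did a library of one group reach the other, and *Ebp* fell less than both its neighbours.

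The *Dhcr7* over *Sc5d* ratio rose by 1.00, from −0.50, −0.61 and −0.28 in control to 0.78, 0.52 and 0.31 in Rnf40ΔSC libraries, without overlap. *Nsdhl* over *Msmo1* differed by −0.48 and *Hsd17b7* over *Nsdhl* by 0.60, also without overlap. Each of these 5 ratios had p = 0.1 in an exact two-sided permutation test, the smallest p that 3 libraries against 3 can give, and 0.16 after Benjamini-Hochberg adjustment over the 8 neighbouring pairs, so that none could pass 0.05. The ratios of *Cyp51* over *Lss*, *Tm7sf2* over *Cyp51* and *Msmo1* over *Tm7sf2* overlapped between groups (differences of 0.96, 0.02 and 0.15, exact permutation p = 0.2, 1 and 1).

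**Figure D4:**
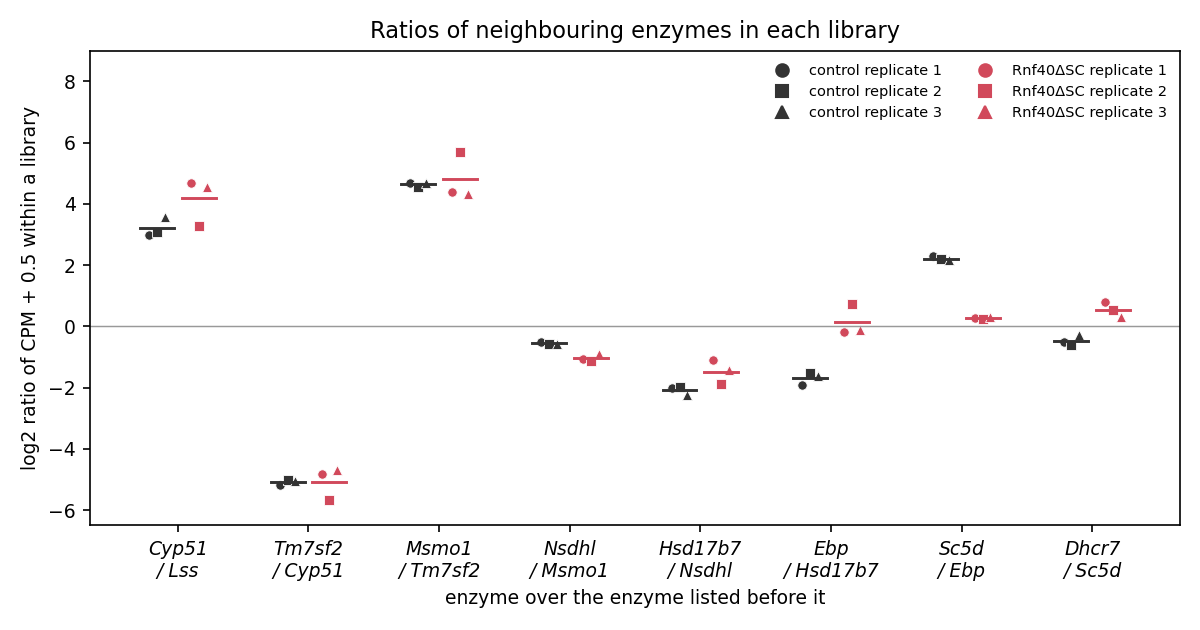
Log2 ratio of the CPM (plus 0.5) of each enzyme to that of the enzyme before it, with 1 symbol for each library, control in black and Rnf40ΔSC in red, and bars at group means. Ratios that involve *Ebp* differ most between the groups (1.83 and −1.94).

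Levels can be compared between genes only per length, for which CPM were divided by merged exon length in kilobases. On this scale control nerves ranged from 174 ± 20.5 (SD, n = 3) for *Cyp51* to 6.17 ± 1.06 for *Tm7sf2*. The control order was *Cyp51*, *Nsdhl*, *Msmo1*, *Sc5d*, *Dhcr7*, *Hsd17b7*, *Ebp*, *Lss* and *Tm7sf2*, in which the libraries of *Dhcr7* and *Hsd17b7*, of *Hsd17b7* and *Ebp*, and of *Lss* and *Tm7sf2* overlapped. In Rnf40ΔSC nerves levels ran from 25.0 ± 4.01 for *Cyp51* to 0.531 ± 0.243 CPM per kilobase for *Lss*, which overlapped *Tm7sf2*, as *Nsdhl* overlapped *Msmo1*. There *Ebp* (7.24 ± 0.718) was above *Hsd17b7* (3.04 ± 0.90) and overlapped *Dhcr7* (7.95 ± 1.76), which itself overlapped *Sc5d* (8.72 ± 0.627). This order depended on the length used. With the longest transcript in place of merged exons, *Msmo1* (184.7) was above *Nsdhl* (171.9) in control, and *Lss* (11.56) rather than *Tm7sf2* (14.36) was lowest. In Rnf40ΔSC nerves *Msmo1* (29.8) rather than *Cyp51* (27.3) was then highest, and *Dhcr7* (10.69) and *Ebp* (9.599) were above *Sc5d* (9.027).

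The early steps, which lead from acetyl-CoA to squalene epoxide, were given by a list of 10 genes, of which 8 were tested and 8 were called lower (median log2 fold change −2.16). *Mvd*, the mevalonate diphosphate decarboxylase, had the largest fall, from 100.3, 102 and 109 normalized counts in control to 10.5, 5.9 and 7.8 (log2 fold change −3.64, SE 0.24, edgeR adjusted p = 3.57e-15). The groups did not overlap.

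A further 6 early enzymes had log2 fold changes of −1.45 (*Mvk*), −1.54 (*Pmvk*), −1.75 (*Sqle*), −2.22 (*Acat2*), −2.48 (*Fdps*) and −2.78 (*Fdft1*). Scaled to the 3 Schwann cell genes, *Mvk* (−0.65) and *Pmvk* (−0.74) no longer passed the fold limit. *Idi1* was too low to be tested, with 7.7, 10.6 and 9.2 against 1.6, 0 and 3.1 normalized counts. *Hmgcs1* was listed at 0 in all 6 libraries. GENCODE vM1 has no gene of this name, and its RefSeq promoter window matched 2 unplaced mm9 sequences. For *Idi1*, *Fdps* and *Acat2*, 14.7%, 17.8% and 53.6% of the 31-base words in their exons occurred once in the genome, so that their counts are less certain than those of the later enzymes. *Fdft1* shared 769 merged exon bases with *Ctsb* on the opposite strand.

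Another list held genes that assist or parallel the late steps. Of 10 listed, 8 were found and tested, 2 were called lower, and 6 were lower by adjusted p (median −0.51). *0610007P14Rik*, the mouse symbol of the scaffold protein Erg28, had 111, 121 and 94.5 normalized counts in control and 62, 46.9 and 48.9 in Rnf40ΔSC libraries. The groups did not overlap, and it fell by 1.03 (log2, SE 0.17, edgeR adjusted p = 7.33e-06). The fold limit was missed by total counts (−0.76) and by the 3 Schwann cell genes (−0.23, adjusted p = 0.228). The electron donors and their partners *Cyb5r3*, *Pgrmc1*, *Por* and *Cyb5b* had log2 fold changes of −0.67, −0.54, −0.48 and −0.39, which passed the adjusted p but not the fold limit, and which turned to 0.12, 0.26, 0.31 and 0.41 when scaled to the 3 Schwann cell genes (adjusted p = 0.279, 0.0493, 0.021 and 0.000984). *Lbr*, whose product shares the reductase activity of Tm7sf2, had 91.1, 94.3 and 104.6 normalized counts against 82.1, 76.1 and 82.2 (log2 fold change −0.27, edgeR adjusted p = 0.168, and 0.53 when scaled to the Schwann cell genes, adjusted p = 0.00368). *Ebpl*, a paralogue of *Ebp*, was at 0.65 on the log2 scale (adjusted p = 0.184) at a base mean of 13.8, and at 0.92 by total counts (adjusted p = 0.044) and 1.46 by the 3 Schwann cell genes (adjusted p = 0.000581), with all Rnf40ΔSC libraries above control. *Cyb5a* and *Faxdc2* were not found under these symbols. A row with *Cyb5*, the older symbol of *Cyb5a*, was not counted in the list and had a log2 fold change of −0.53 (edgeR adjusted p = 0.000397).

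Among 10 genes of the SREBP system, 9 were tested and 2 were called lower, among them *Insig1*. *Insig1*, which retains SREBPs in the endoplasmic reticulum and is itself a target, had 377, 382 and 346 normalized counts in control and 72.4, 103 and 53.5 in Rnf40ΔSC libraries (log2 fold change −2.31, edgeR adjusted p = 5.3e-11). The groups did not overlap, although 52.3% of the 31-base words of *Insig1* exons occurred once in the genome. *Stard4*, a sterol carrier, fell by 1.89 at a base mean of 17.2, below the limit of a call.

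The genes of the SREBPs themselves and of their processing were not called with TMM scaling. *Srebf2* had 272, 317 and 313 normalized counts in control and 214, 165 and 278 in Rnf40ΔSC libraries, which overlapped. Its log2 fold change was −0.44 (SE 0.14, edgeR adjusted p = 0.0255), −0.17 by total counts (adjusted p = 0.363) and 0.36 when scaled to the 3 Schwann cell genes (adjusted p = 0.0226). *Srebf1* had 136, 136 and 134 against 125, 152 and 156 normalized counts (0.09, adjusted p = 0.623). *Scap*, the escort of SREBPs, and *Mbtps2*, a protease that releases them, had log2 fold changes of −0.40 and −0.71, which passed the adjusted p but not the fold limit and turned to 0.40 and 0.08 under the Schwann cell scaling (adjusted p = 0.00613 and 0.729). *Mbtps1* (0.01, adjusted p = 0.935) and *Insig2* (0.31, adjusted p = 0.169) did not pass the test. By total counts, *Srebf1*, *Insig2* and *Mbtps1* were higher by adjusted p (0.36, 0.58 and 0.28). Scaled to the 3 Schwann cell genes, they were at 0.895, 1.105 and 0.808, past the fold limit and the adjusted p (4.6e-07, 5.58e-07 and 6.81e-09).

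The composition of the tissue was followed with marker lists. Of the 6 general Schwann cell genes, 2 were called lower and 1 higher, and their summed level was 3139, 3621 and 3393 CPM in control and 2145, 2179 and 1948 CPM in Rnf40ΔSC libraries. The groups did not overlap. *Ngfr* (log2 fold change −0.90) and *Foxd3* (0.90) changed most, and were at −0.11 and 1.71 when scaled to the 3 Schwann cell genes. Of the 6 myelin-related genes, 5 were called lower, with a summed level of 135190, 154880 and 146550 CPM against 37631, 35452 and 36301 CPM. Scaled to the 3 Schwann cell genes, 1 of these 5, *Prx* (−0.7988), fell short of the fold limit, a gene named after its values were seen. *Egr2*, the transcription factor of myelination, had a log2 fold change of 0.36 (edgeR adjusted p = 0.00579) with all Rnf40ΔSC libraries above control, and of 1.16 under the Schwann cell scaling. The mean sum of the 9 cholesterol enzymes was 6.38-fold lower, that of the myelin list 3.99-fold and that of the Schwann cell list 1.62-fold. Differences between these lists were not tested.

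Markers of other cell types were summed in the same way. Of 5 fibroblast genes, 4 were lower by adjusted p and none was called (summed level 28798, 28034 and 30607 CPM against 21526, 20235 and 20935 CPM), with the most counts for *Col1a2*, which also changed most (−0.66). By total counts, 1 fibroblast gene was lower and 1 higher by adjusted p. Scaled to the 3 Schwann cell genes, 0 were lower and 4 higher. Of 4 perineurial genes, 1 was called lower, *Itgb4* (−1.69), which also had the most counts, and the sum went from 855, 992 and 979 CPM to 564, 463 and 515 CPM. *Itgb4* thus weighs heavily in this sum, and which cells its fall comes from was not tested. The paper lists it among genes with decreased peaks of ubiquitinated histone H2B and lower expression. *Cldn1* (−0.28), *Slc2a1* (−0.66) and *Moxd1* (0.12), named after their values were seen, changed less. Of 5 endothelial genes, 1 was called lower, *Cldn5* (−1.12), with the most counts for *Cdh5* and a sum of 622, 575 and 656 CPM against 407, 402 and 485 CPM. The libraries of these 3 sums did not overlap between groups.

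Of 5 mural cell genes, 3 were lower by adjusted p and none was called, with a sum of 926, 675 and 765 CPM against 491, 503 and 610.3 CPM, the most counts for *Pdgfrb* and the largest change also there (−0.65). By total counts, 1 mural gene was lower by adjusted p, and 0 were when scaled to the 3 Schwann cell genes. Of 6 macrophage genes, 5 were tested and 1 was called lower, *Cd68* (−0.81), with the most counts for *Csf1r* and a sum of 277, 245 and 278 CPM against 177, 171 and 186 CPM. In stained sections of the same age, the paper counted a higher share of Iba1-positive macrophages in Rnf40ΔSC nerves. This RNA sum and those cell counts went in opposite directions, so the sum cannot be read as a number of cells. *Aif1* was at 0 in control replicate 3 and Rnf40ΔSC replicate 1 and had at most 3.5 normalized counts elsewhere. Of 6 adipocyte genes, 1 was called lower, *Plin1* (−1.31), with a sum of 1906, 1380 and 2450 CPM against 1398, 1223 and 1128 CPM and the most counts for *Fabp4*, at a log2 fold change of −0.43 (edgeR adjusted p = 0.33). Scaled to the 3 Schwann cell genes, the medians of the fibroblast, perineurial, endothelial, mural, macrophage and adipocyte lists turned to 0.53, 0.33, 0.25, 0.27, 0.16 and 0.14, whereas those of the cholesterol enzymes (−1.87), the early steps (−1.36) and the myelin list (−1.02) stayed below 0. Under this scaling *Itgb4* (−0.89) still passed both the fold limit and the adjusted p, and *Cldn5* (−0.32), *Cd68* (−0.0045) and *Plin1* (−0.50) passed neither. By total counts *Cd68* was at −0.54, short of the fold limit. In stained sections at P14, the paper found comparable shares of Sox10-positive and of Egr2-positive cells in both groups. Total cell numbers per section were slightly higher in Rnf40ΔSC nerves. The part of cell composition in the fall of the cholesterol enzymes was not tested.

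**Figure D5:**
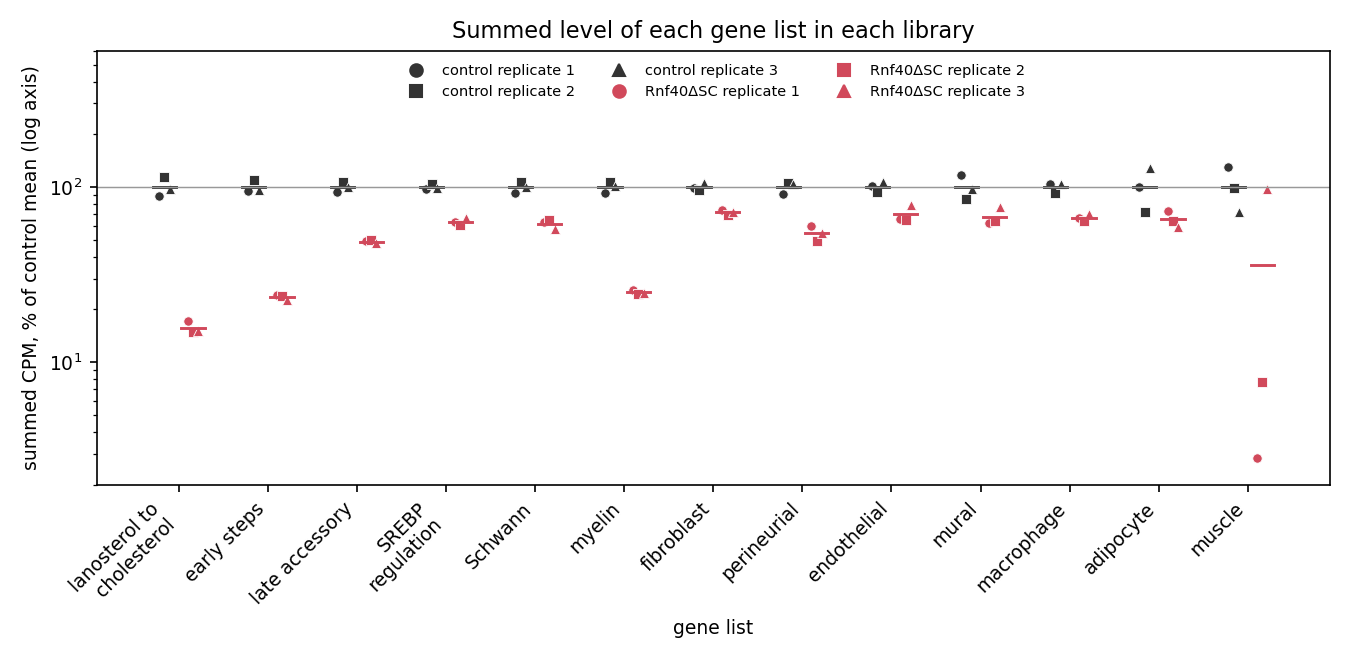
Summed CPM of each gene list as percent of the control mean (log axis), with 1 symbol for each library, control in black and Rnf40ΔSC in red, and bars at group means. The sum of the 9 cholesterol enzymes is 6.38-fold lower in Rnf40ΔSC nerves, and muscle genes are low in 2 of the 3 Rnf40ΔSC libraries; scaled to 3 Schwann cell genes, the medians of the 6 lists from fibroblast to adipocyte on the axis are above 0 and that of the muscle genes is −0.364.

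None of the 9 skeletal muscle genes was called by edgeR, and their summed level was 3970, 3012 and 2215 CPM in control and 87.2, 236 and 2977 CPM in Rnf40ΔSC libraries, so that Rnf40ΔSC replicate 3 lay within the control range. The median log2 fold change of the list was −1.18, and −0.364 when scaled to the 3 Schwann cell genes. *Myh4* had the most counts and the largest change (log2 fold change −2.16, edgeR adjusted p = 0.33), from 2640.7, 1754.9 and 1314.4 normalized counts in control to 46.7, 53.9 and 1142.5 in Rnf40ΔSC libraries. It was 1 of 2 muscle genes whose groups did not overlap, the other being *Actn3*, named after its values were seen. The summed level of the 9 cholesterol enzymes was 318 CPM in Rnf40ΔSC replicate 3, beside 361 and 311 CPM in the other 2 libraries. Without replicate 3, 8 enzymes were called lower and the median log2 fold change of the 9 was −2.60. Both Rnf40ΔSC libraries that remain were low in muscle RNA (87.2 and 236 CPM), so that muscle RNA and genotype cannot be told apart in this setting.

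The Y-linked genes *Ddx3y*, *Eif2s3y*, *Kdm5d* and *Uty* were at 0 in control replicate 1 and Rnf40ΔSC replicate 2 and present in the other 4 libraries. *Xist* had the most counts of the sex-linked genes and the largest change, with 974, 339 and 341 normalized counts in control and 557, 1381 and 905 in Rnf40ΔSC libraries (log2 fold change 0.81, edgeR adjusted p = 0.422). *Nsdhl* and *Ebp* are X-linked. With only the 4 libraries that have *Ddx3y* counts, a setting chosen after seeing the data, *Nsdhl* was at −3.15 (edgeR adjusted p = 9.66e-19). *Ebp* was then at −0.91 (adjusted p = 0.00941) and was called lower. These 4 libraries also had *Xist* counts, and the part of sex in the values of both genes was not tested further.

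Genes whose log2 CPM followed the mean pattern of the 9 enzymes most closely over the 6 libraries were *Lgi4*, *Bcl2l2*, *Ank3*, *Pea15a* and *L1cam* (Pearson r between 0.998 and 0.999). *Lgi4*, a secreted protein of Schwann cells needed for myelination, had 249, 318 and 272 normalized counts in control and 117, 114 and 109 in Rnf40ΔSC libraries. *L1cam*, an adhesion molecule, had 198, 252 and 220.0 against 64.4, 63.3 and 56.6. Among 9243 candidate genes, 562 had an r above 0.95. The 6 libraries fall into 2 groups, so that r is a description of these libraries only.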

How the data were processed

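RNA from sciatic nerves of 3 control and 3 Rnf40ΔSC mouse pools at P14 was sequenced. The authors aligned reads to mm9 with TopHat 2.1.1, counted uniquely mapped reads per gene with HTSeq 0.9.1 and deposited raw counts per gene. The submitters' processing notes name Bowtie2 2.1.0 and both mm10 and mm9. The labels and the methods name different library kits, and the strand setting of the counting and the annotation are not given in the sources used here, so genes that overlap on either strand are uncertain. Counts were tested with edgeR 4.0.16 in R 4.3.3 (filterByExpr, TMM, robust quasi-likelihood test of genotype without covariates, Benjamini-Hochberg adjustment over 11371 genes), after a check on simulated counts. Replicates differed by more than sampling noise. Normalized counts were scaled to the geometric mean of effective library sizes. Step ratios used an exact permutation test (scipy 1.17.1). Exon lengths came from GENCODE vM1 and promoters from RefSeq. The genes named were the 9 enzymes, *Rnf40*, *Rnf20*, all genes of the 3 related pathway lists, for each marker list the gene with the most counts, the largest change and those at 0, and the 5 genes most like the enzymes in pattern. Some genes under this rule are not reported here. The enzymes and lists were chosen with earlier results of these data known. Alternatives changed the scaling, tool, filter, limits of a call, replicate block, libraries, pseudocount and gene length.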

Additional observations from a re-analysis of the deposited data

How the results depend on the processing

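Between 7 and 9 of the 9 enzymes were called lower under all 17 alternatives, 1 of them (libraries with *Ddx3y* counts) chosen after seeing the data, and of 134 fold changes of single enzymes under them, 130 kept their direction and their side of the adjusted p limit. The 4 exceptions were all *Ebp*, at −0.47 by total counts (adjusted p = 0.0867), 0.064 when scaled to *Sox10*, *Erbb3* and *S100b* (0.803), −0.73 by DESeq2 1.42.0 (0.0589) and −0.52 without control replicate 2 (0.132). *Tm7sf2* had no value with a minimum of 10 counts in every library. By total counts, 261 genes were called lower and 1008 higher, the median of the enzymes was −2.40, their summed CPM was 5.29-fold lower and *Rnf40* was at −0.27 (adjusted p = 0.12, over a range of 0.00235 to 0.12 for its alternatives). Scaled to the 3 Schwann cell genes, 100 genes were called lower and 4681 higher, the median of the enzymes was −1.87 and *Rnf40* was at 0.26 (0.116). These shifts follow from the scaling itself, which moved the median of all genes by 0.27 and 0.80. Without a minimum fold change, 1733 genes were called lower, 1543 higher and 19 in place of 12 of the related pathway genes, and without a minimum base mean 628 higher.

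With each library left out in turn, the median of the enzymes ranged from −2.79 to −2.56. Of 72 step ratio values, 66 kept their direction. *Tm7sf2* over *Cyp51* was −0.22 with no pseudocount and ranged from −0.17 to 0.33 with a library left out, and *Msmo1* over *Tm7sf2* was −0.31 with a pseudocount of 2 and ranged from −0.29 to 0.40. The cause was not tested. With the longest transcript, 12 of 18 levels per length moved by more than 1 SD. Same-numbered libraries of the groups did not deviate together (r = −0.07, 0.01 and −0.02), so that no sign of a pairing by number was seen. With deviations from means of 3 libraries, such a check cannot exclude a pairing. With the replicate number as a block, 8 enzymes, 566 lower and 408 higher genes were called, with a median of the enzymes of −2.63. Library totals of 1317167 to 2468765 counts limit genes such as *Tm7sf2*, which had 2 to 9 counts in Rnf40ΔSC libraries.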
